A study of Homo sapiens with 28 samples.

Results

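The 37 genes described here code for the glucose and lactate carriers, the enzymes of glycolysis, the kinases that set its flux, and proteins of oxygen sensing and the hypoxia response. They were taken by gene name from a table of 58735 genes, by a rule that reads no measured value although it was drawn up with earlier results known, and all 37 had counts and entered the tests, among 17191 genes tested. Glycolysis splits glucose to pyruvate in the cytosol, and lactate dehydrogenase turns pyruvate to lactate, which leaves the cell with a proton through carriers such as SLC16A3 (MCT4). In low oxygen the prolyl hydroxylases of the EGLN family no longer mark the HIF1A protein for breakdown. HIF1A then pairs with ARNT and binds short DNA sites with the core ACGTG or GCGTG near many of these genes, among them VEGFA, CA9 and most glycolytic enzymes. MDA-MB-231 and many other cancer lines are known for high glycolysis even with oxygen present. HIF1A itself is controlled mostly at the level of protein, and protein was not analysed here.

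The human breast cancer line MDA-MB-231, which lacks hormone receptors and HER2 amplification, was kept under puromycin in full serum. They carried tropomyosin 2.1 (Tpm2.1, from the gene TPM2), an actin-binding protein that was overexpressed, or an empty vector (EV). The groups were Tpm2.1 cells of the apoptotic fraction at 5 hours and 1, 2 and 4 days in suspension, Tpm2.1 cells of the non-apoptotic fraction at the same times, attached Tpm2.1 cells, suspended EV cells at the same times and attached EV cells. Attached cells had 6 hours on tissue culture plates, and suspended cells were on ultra-low attachment plates. The fractions were parted on Annexin V beads, while none is stated for EV or for attached cells. Between suspended lines the bead step therefore differs along with TPM2, and within the Tpm2.1 line it differs along with suspension. Attached cells were taken at 6 hours alone. At 1, 2 and 4 days the time in culture therefore differs along with suspension, and these cannot be told apart. Each of the 14 groups had 2 libraries, named biological replicates with no word on how cultures were set apart, so the tests measure the spread between these samples.

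Libraries held 13043529 to 27416335 counts, and the 37 genes together took 1.09% to 2.11% of them. TPM2 was far higher in attached Tpm2.1 than attached EV cells (log2 fold change 7.05), as the labels say. The line's markers VIM, KRT8, KRT18, EPCAM and CD44 were present in every library (VIM at 743 to 1530 CPM). Of the genes expected low in this line, PGR was at 0 in 25 libraries and CDH1 at 0 in 23. ESR1 had 0.123 to 2.41 CPM, while ERBB2 had 13.95 to 104 CPM and so was not low. Of the markers of other cells, CD3E was at 0 in 27 libraries, PTPRC and CDH5 in 17 each, and COL1A1 had 19.2 to 104 CPM. PECAM1 had 0.228 to 11.85 CPM, DCN 0 to 6.18, COL3A1 0 to 1.19 and CD68 0 to 0.436. Both apoptotic libraries of 4 days stood apart, with 18183 and 18676 genes holding a count, against 21275 to 24530 in the others, and with 6.40% and 5.86% of counts on mitochondrial mRNAs. Levels are given as CPM, the count scaled to library size with TMM, and a gene passed where its adjusted p in edgeR's quasi-likelihood test was under 0.05. A change past 2-fold is one that passed with a log2 fold change above 1 in size. Values after ± are standard errors unless named otherwise.

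Per unit of transcript length GAPDH, ENO1, PGAM1, TPI1, PKM and LDHA were the most abundant members in attached cells. In attached EV cells GAPDH averaged 871 FPKM, ENO1 598, PGAM1 384, TPI1 342, PKM 264 and LDHA 245. At the low end stood PDK1 with 1.25 FPKM, the prolyl hydroxylase EGLN3 with 0.45 and the carbonic anhydrase CA9 with 0.26. The same 6 enzymes led in EV cells after 4 days of suspension, with GAPDH at 901 and ENO1 at 520 FPKM. In the apoptotic fraction at 4 days the order had changed, with PKM at 343, LDHA at 277 and HIF1A at 268 FPKM ahead of GAPDH at 222. The 15 glycolytic enzymes summed to 2853 and 2839 FPKM in the attached EV libraries and to 1557 and 1619 after 5 hours of suspension. They reached 1971 and 1985 at 1 day, 1967 and 2055 at 2 days, and 3028 and 2935 at 4 days. Among the EV groups the sum was thus lowest at 5 hours, and by 4 days it was above the attached level in both libraries. In Tpm2.1 cells it was 2714 and 2699 FPKM attached. The non-apoptotic fraction at 4 days had 2633 and 2587 FPKM, still below that level.

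Some members are counted with less certainty. ALDOA shares 42.3% of its exon bases on the same strand with the gene AC093512.2, and its FPKM here was low beside the other enzymes. LDHB shares 33.4% with AC010197.2. ANKRD37 and CA9 share 35.2% and 38.5% with genes on the opposite strand (UFSP2 and ARHGEF39), and no strand setting is given in the sources used here. Levels of these 4 genes are therefore uncertain.

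**Figure D1:**
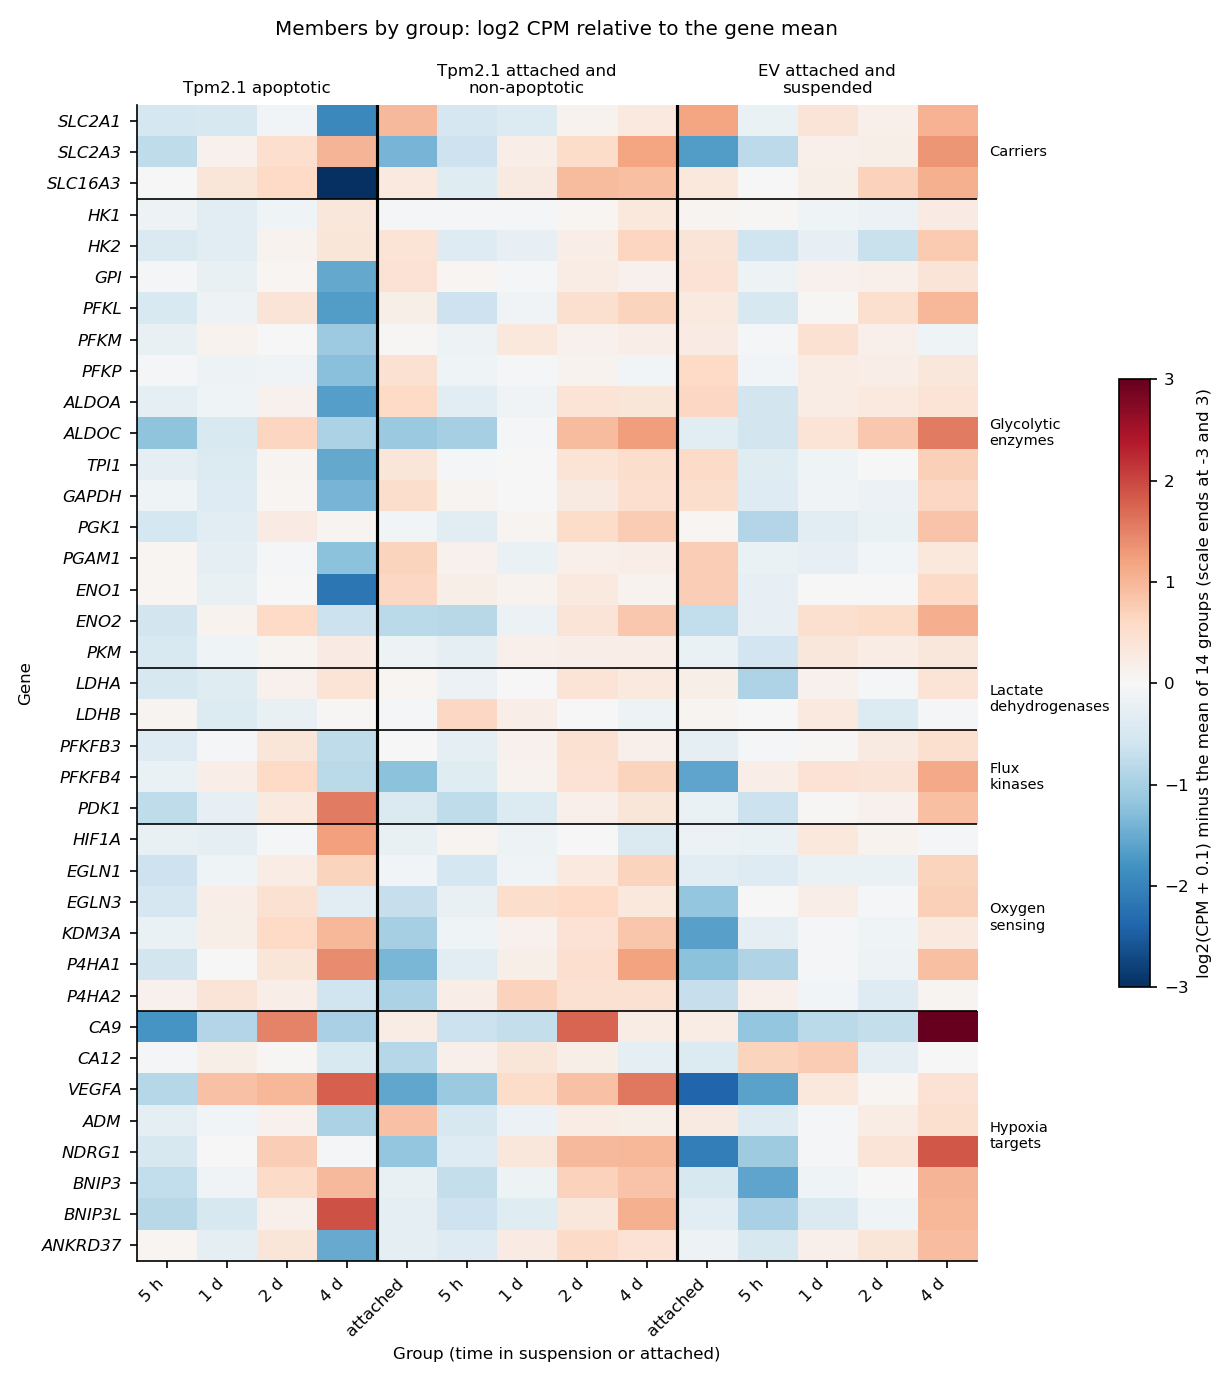
Mean log2(CPM + 0.1) of each member in each of the 14 groups, minus the member's mean over the groups; genes run down the page by role and groups across it, and the colour scale ends at -3 and 3. Blue columns for attached cells in the lower rows, red columns at 4 days of suspension, and the dark blue SLC16A3 cell of the apoptotic fraction at 4 days (9.10 CPM) stand out.

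Suspension against attachment was first asked over the mean of the 4 times, in which time in culture changes along with suspension. In the non-apoptotic Tpm2.1 fraction 22 members rose and 10 fell against attached Tpm2.1 cells, where 61.4% of all genes tested passed (30.8% higher and 30.6% lower). In EV cells 20 rose and 13 fell against attached EV cells, where 66.3% of all genes tested passed (34.2% higher and 32.2% lower). Without the 4-day libraries the EV split was 14 and 15. The shares of members that passed were thus above those of all genes in both lines, and the median log2 fold change over the members was 0.16 in Tpm2.1 cells (0.03 over all genes) and 0.20 in EV cells (0.06 over all genes). The role named oxygen sensing, which also holds the collagen hydroxylase genes P4HA1 and P4HA2, had the highest median of the roles in both lines. In it 5 of 6 rose in Tpm2.1 cells and 6 of 6 in EV cells. Its smallest changes were those of HIF1A (0.09 in Tpm2.1 and 0.22 in EV cells) and EGLN1 (0.16 and 0.29). Of the 15 glycolytic enzymes 5 rose and 8 fell in Tpm2.1 cells, and 3 rose and 10 fell in EV cells. In bulk RNA fewer cells that hold a transcript and less of it per cell cannot be told apart. The lines have separate attached and suspended libraries, and 19 genes rose in both, which is 86.4% of those that rose in Tpm2.1 cells and 95% of those in EV cells. All 10 genes that fell in Tpm2.1 cells also fell in EV cells, where they make 76.9% of the 13. PGK1, which makes the first ATP of glycolysis, was the 1 gene that passed in opposite directions.

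More members were lower than higher early in suspension and more were higher than lower late. At 5 hours 11 members were higher and 21 lower in non-apoptotic Tpm2.1 cells than in attached cells (45.2% of all genes passed), and 11 were higher and 20 lower in EV cells (54.7%). At 4 days 26 were higher and 7 lower in Tpm2.1 cells (62.4%, with 32.6% higher), and 27 were higher and 4 lower in EV cells (59.5%, with 31.6% higher). Between these times, at 1 day, 17 were higher and 11 lower in Tpm2.1 cells (54.8%) and 17 and 14 in EV cells (63.0%). At 2 days 24 were higher and 8 lower in Tpm2.1 cells (56.8%) and 19 and 12 in EV cells (64.6%). With count totals in place of TMM scaling the EV splits were 20 and 9 at 1 day and 20 and 8 at 2 days.

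Of the 15 glycolytic enzymes none was higher and 12 were lower at 5 hours in Tpm2.1 cells, and 1 was higher and 13 lower in EV cells. At 4 days 9 were higher and 4 lower in Tpm2.1 cells, and 8 were higher and 4 lower in EV cells. HK2, PFKL, TPI1, PGK1 and PKM passed as lower at 5 hours and as higher at 4 days in both lines, while PFKP, PGAM1 and ENO1 were lower at both times in both lines.

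The change within suspension was tested directly as 4 days against 5 hours, a comparison that shares its 5-hour and 4-day libraries with those above. In non-apoptotic Tpm2.1 cells 29 members rose and 3 fell, where 54.9% of all genes passed and 29.9% rose. In EV cells 33 rose and 1 fell, where 52.8% of all genes passed and 28.3% rose. The median log2 fold change of the members was 0.78 in Tpm2.1 cells and 1.05 in EV cells, beside 0.04 and -0.00 over all genes. Past 2-fold, 15 rose in Tpm2.1 cells (9.02% of all genes) and 20 in EV cells (6.68%), and no member fell past 2-fold in either. The lines share no library here: 27 genes rose in both, 93.1% of those in Tpm2.1 cells and 81.8% of those in EV cells. Group means climbed at each step from 5 hours to 4 days for 18 members in Tpm2.1 cells (13.1% of all genes) and for 18 in EV cells (9.92%). In the apoptotic fraction 16 rose and 17 fell (77.0% of all genes passed), with 23 and 9 after a correction for GC content.

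**Figure D2:**
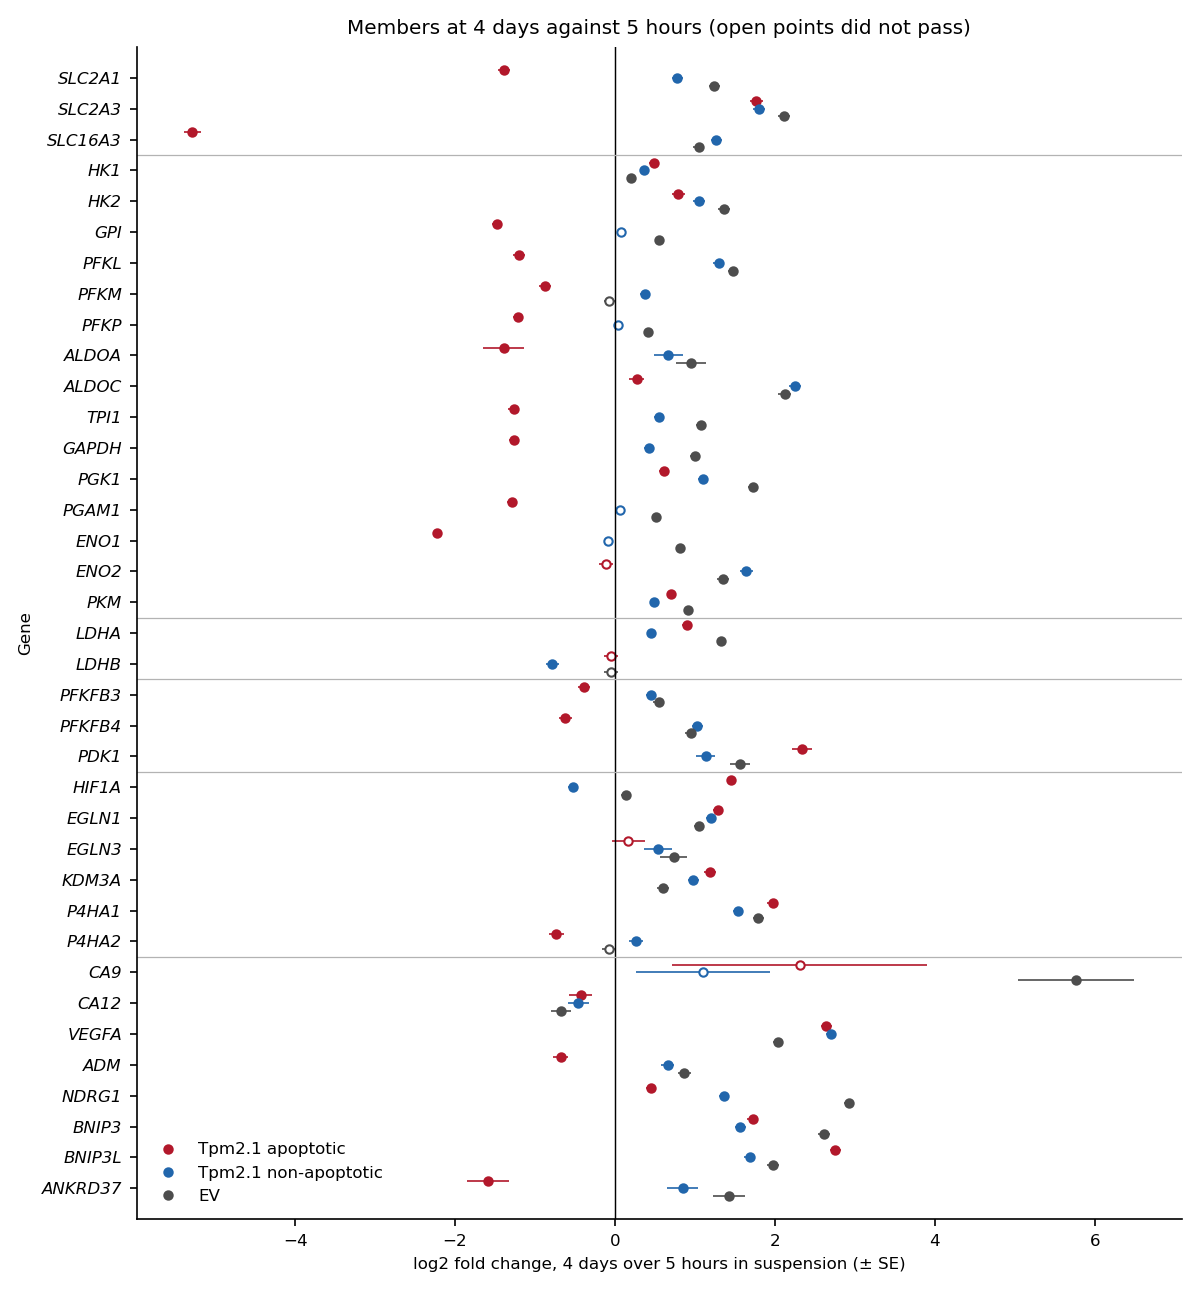
Log2 fold change of each member at 4 days over 5 hours in suspension (horizontal axis, with SE as bars) in apoptotic and non-apoptotic Tpm2.1 cells and in EV cells; open points did not pass. Most blue and grey points lie right of 0 (29 and 33 members rose), while the red points divide, down to -5.28 for SLC16A3 and up to 2.76 for BNIP3L.

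Among the carriers, the glucose transporters SLC2A1 (GLUT1) and SLC2A3 (GLUT3) moved apart. SLC2A1 had 521 and 505 CPM in attached Tpm2.1 cells, then 185 and 182 at 5 hours, 197 and 194 at 1 day, 271 and 291 at 2 days and 317 and 314 at 4 days in the non-apoptotic fraction. In EV cells it had 595 and 583 CPM attached, 223 and 231 at 5 hours, 340 and 338 at 1 day, 274 and 303 at 2 days, and 548 and 525 at 4 days. No suspended library of either line reached its own attached level. The mean fall on suspension was -1.11 ± 0.05 in Tpm2.1 cells and -0.83 ± 0.05 in EV cells on the log2 scale, while at 4 days alone the EV change was -0.13 ± 0.06 and did not pass. SLC2A3, the transporter with the higher affinity for glucose, had 26 and 28.2 CPM in attached Tpm2.1 cells, 44.9 and 47.7 at 5 hours, 80.7 and 84.2 at 1 day, 99.0 and 110 at 2 days, and 163 and 160 at 4 days. In EV cells SLC2A3 had 22.0 and 22.7 CPM attached, 41.0 and 41.3 at 5 hours, 77.8 and 80.8 at 1 day, 82.3 and 79.5 at 2 days and 173 and 183 at 4 days. Every suspended library was above every attached one, and SLC2A3 rose by 1.72 ± 0.07 in Tpm2.1 and 1.89 ± 0.07 in EV cells on the mean of the times. SLC16A3, which exports lactate, fell at 5 hours and rose at 4 days in both lines, by 0.62 ± 0.07 in Tpm2.1 and 0.75 ± 0.07 in EV cells against attached cells.

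Set per length, SLC2A3 made up 3.90% of the summed FPKM of SLC2A1 and SLC2A3 in attached Tpm2.1 cells and 16.2%, 24.4%, 22.2% and 28.2% over the times in the non-apoptotic fraction. In EV cells it made up 2.83% attached and 12.2%, 15.2%, 17.7% and 20.3% over the times. Both lines already had the higher share at 5 hours, with SLC2A1 lower and SLC2A3 higher than in attached cells. Among the enolases, the isoenzyme ENO2 made up 2.16% in attached Tpm2.1 cells and 2.84%, 4.69%, 5.99% and 8.82% over the times. Its share in EV cells was 2.11% attached and 5.54%, 7.79%, 8.15% and 7.86% over the times. PFKL, one of 3 phosphofructokinases that catalyse the committed step, took 19.2% of their FPKM in attached Tpm2.1 cells and 16.7%, 20.4%, 26.7% and 31.3% over the times. In EV cells PFKL took 19.0% attached and 17.4%, 19.1%, 25.3% and 31.7% over the times, so the course was alike in both lines. HK2, the inducible hexokinase, took 37.9% of HK1 and HK2 in attached Tpm2.1 cells, 25.8% at 5 hours and 35.8% at 4 days, and 35.2%, 22.2% and 38.9% at these points in EV cells. These shares are descriptions with no test.

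**Figure D3:**
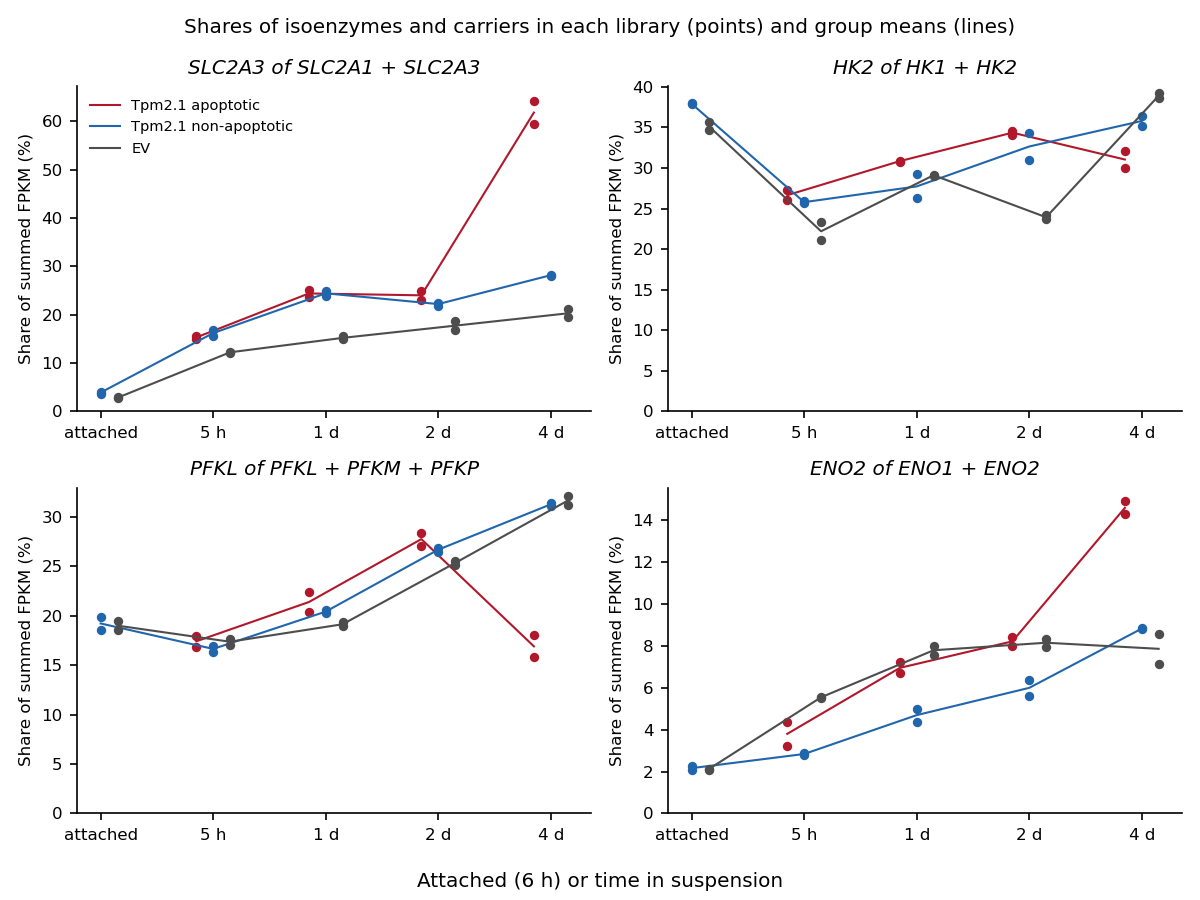
Share (%) of 1 carrier or isoenzyme in the summed FPKM of its family, in each library (points) with group means (lines), for attached cells and the times in suspension. The SLC2A3 share was higher in every suspended library than in attached cells and reached 59.4% and 64.3% in the apoptotic fraction at 4 days, while the HK2 share was lower at 5 hours than attached. Against the non-apoptotic fraction at 4 days SLC2A1 was at -2.21 and SLC2A3 at -0.17 on the log2 scale. FPKM has no GC correction.

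Several abundant enzymes of glycolysis fell on the mean of the times. ENO1, the main enolase, had 2917 and 2902 CPM in attached Tpm2.1 cells, 2129 and 2162 at 5 hours, 2005 and 2018 at 1 day, 2396 and 2207 at 2 days and 2045 and 2009 at 4 days. In EV cells ENO1 had 3112 and 3137 CPM attached, 1602 and 1594 at 5 hours, 1877 and 1856 at 1 day, 1809 and 1920 at 2 days and 2866 and 2760 at 4 days. All suspended libraries were below the attached ones, and ENO1 fell by 0.46 ± 0.04 in Tpm2.1 cells and by 0.65 ± 0.04 in EV cells. From 5 hours to 4 days it rose by 0.82 ± 0.05 in EV cells and did not pass in non-apoptotic Tpm2.1 cells (-0.08 ± 0.05). PGAM1, the mutase before enolase, fell by 0.59 ± 0.04 in Tpm2.1 cells and by 0.79 ± 0.04 in EV cells on the mean of the times. GAPDH, TPI1, GPI, PFKP and ALDOA also fell in both lines, by 0.13 to 0.53 in Tpm2.1 cells and by 0.30 to 0.53 in EV cells. HK2, which traps glucose as its phosphate, changed by -0.36 ± 0.06 in Tpm2.1 and -0.56 ± 0.06 in EV cells. It had 206 and 209 CPM in attached Tpm2.1 cells, then 116 and 121, 122 and 143, 164 and 195, and 256 and 234 over the times. In EV cells it had 208 and 200 CPM attached, then 108 and 99.6, 131 and 133, 97.2 and 101, and 259 and 277. In both lines HK2 was above its attached level only at 4 days, where the increase passed (0.24 ± 0.07 in Tpm2.1 and 0.39 ± 0.07 in EV cells).

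ALDOC, ENO2 and PKM were the enzymes that rose on the mean of the times in both lines. ALDOC, an aldolase best known from brain, had 30.2 and 31.9 CPM in attached Tpm2.1 cells, 34.7 and 33.4 at 5 hours, 64.4 and 68.7 at 1 day, 127 and 134 at 2 days, and 162 in both libraries at 4 days. In EV cells ALDOC had 54.6 and 53.7 CPM attached, 46.6 and 45.5 at 5 hours, 90.3 and 90.4 at 1 day, 116 and 121 at 2 days and 197 and 204 at 4 days. The 4-day values were the highest in both lines, and ALDOC rose by 1.42 ± 0.07 in Tpm2.1 and 0.88 ± 0.06 in EV cells. ENO2, the enolase best known from neurons, had 54.6 and 49.7 CPM in attached Tpm2.1 cells, then 49.4 and 52.3, 74.6 and 86.2, 115 and 122, and 161 and 157 over the times. In EV cells it had 54.8 and 54.2 CPM attached, then 76.8 and 75.4, 125 and 131, 134 in both libraries, and 179 and 210. ENO2 rose by 0.85 ± 0.06 in Tpm2.1 and by 1.21 ± 0.07 in EV cells, and at 5 hours only the EV increase passed. PKM, pyruvate kinase, rose by 0.21 ± 0.04 in Tpm2.1 and 0.28 ± 0.04 in EV cells, and HK1, the constitutive hexokinase, passed only in Tpm2.1 cells (0.13 ± 0.04). PGK1 had 550 and 572 CPM in attached Tpm2.1 cells, 467 and 471 at 5 hours and 1017 and 990 at 4 days. In EV cells PGK1 had 620 and 608 CPM attached, 316 and 334 at 5 hours and 1066 and 1077 at 4 days. The EV trough at 5 hours was the deeper, and the mean over the times was 0.34 ± 0.05 in Tpm2.1 and -0.18 ± 0.05 in EV cells.

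The lactate dehydrogenase gene LDHA had 1377 and 1390 CPM in attached Tpm2.1 cells, 1184 and 1170 at 5 hours, 1262 and 1370 at 1 day, 1836 and 1718 at 2 days and 1611 and 1619 at 4 days. In EV cells LDHA had 1512 and 1500 CPM attached, 712 and 686 at 5 hours, 1446 and 1439 at 1 day, 1265 and 1296 at 2 days and 1749 and 1768 at 4 days. At 5 hours LDHA fell by 0.23 ± 0.06 in Tpm2.1 cells and by 1.11 ± 0.06 in EV cells, and at 4 days it was 0.22 ± 0.06 higher in both. LDHB, the subunit best known from heart, had 56.7 and 53.3 CPM in non-apoptotic Tpm2.1 cells at 5 hours and 33.8 and 35.1 in attached cells (0.67 ± 0.08). In EV cells LDHB did not pass at 5 hours or at 4 days (-0.09 ± 0.08 and -0.14 ± 0.08).

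All 3 flux kinases rose on the mean of the times in both lines. PFKFB4, which makes the fructose bisphosphate that activates phosphofructokinase, had 28.2 and 28.6 CPM in attached Tpm2.1 cells, then 51.4 and 51.6, 69.6 and 74.4, 87.7 and 93.0, and 107 and 103 over the times. In EV cells it had 23.2 and 21.4 CPM attached, then 75.8 and 76.8, 91.5 and 89.1, 88.4 and 85.3, and 140 and 155. Every suspended library exceeded the attached ones, by 1.44 ± 0.06 in Tpm2.1 and 2.12 ± 0.06 in EV cells on the log2 scale. PFKFB3, its relative with the higher kinase activity, rose by 0.13 ± 0.05 in Tpm2.1 and 0.47 ± 0.05 in EV cells, and at 5 hours it was lower in Tpm2.1 cells (-0.28 ± 0.06) and higher in EV cells (0.22 ± 0.06). PDK1, which shuts pyruvate out of mitochondrial oxidation, had 16.5 and 14.9 CPM in attached Tpm2.1 cells, 13.6 and 11.6 at 5 hours and 29.9 and 25.1 at 4 days. In EV cells PDK1 had 18.0 and 19.0 CPM attached, 14.1 and 13 at 5 hours and 36.6 and 43.6 at 4 days. It fell at 5 hours in both lines and rose by 1.13 ± 0.12 in Tpm2.1 and 1.56 ± 0.12 in EV cells between 5 hours and 4 days.

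In the oxygen-sensing group the mRNA of HIF1A itself changed little on the mean of the times and more at single times. At 1 day it was 0.50 ± 0.05 above the attached level in EV cells. It had 512 and 534 CPM in attached Tpm2.1 cells, then 648 and 645, 557 and 543, 584 and 624, and 449 and 447 over the times. In EV cells HIF1A had 539 and 534 CPM attached, then 534 and 524, 746 and 774, 632 and 672, and 586 and 576. Its mean change was 0.09 ± 0.04 in Tpm2.1 cells, which did not pass, and 0.22 ± 0.04 in EV cells, which did. From 5 hours to 4 days it fell by 0.53 ± 0.05 in Tpm2.1 cells and rose by 0.14 ± 0.05 in EV cells. The prolyl hydroxylase EGLN3, itself a HIF target, had 4.76 and 4.20 CPM in attached Tpm2.1 cells, then 6.48 and 6.10, 10.9 and 10.2, 10.4 and 11.8, and 7.94 and 10.4. In EV cells EGLN3 had 3.97 and 2.58 CPM attached, then 6.83 and 7.86, 8.61 and 8.19, 7.0 and 6.98, and 13.1 and 11.3. It rose by 1.01 ± 0.14 in Tpm2.1 and 1.38 ± 0.15 in EV cells. EGLN1, the main HIF hydroxylase, rose by 0.16 ± 0.05 in Tpm2.1 (-0.04 without the 4-day libraries) and by 0.29 ± 0.05 in EV cells. KDM3A, an oxygen-dependent histone demethylase, rose by 1.31 ± 0.06 in Tpm2.1 and 1.59 ± 0.07 in EV cells and was past 2-fold at 4 days in both (1.83 ± 0.07 and 1.94 ± 0.08). The collagen prolyl hydroxylase subunits P4HA1 and P4HA2 rose more in Tpm2.1 cells: P4HA1 by 1.75 ± 0.06 in Tpm2.1 and 1.18 ± 0.06 in EV cells, and P4HA2 by 1.40 ± 0.07 in Tpm2.1 and 0.64 ± 0.07 in EV cells.

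Of the 8 other hypoxia targets 6 rose and 1 fell in each line on the mean of the times, and in EV cells BNIP3 (-0.096) and BNIP3L (-0.18) turned lower without the 4-day libraries. VEGFA, the angiogenic growth factor, had 162 and 166 CPM in attached Tpm2.1 cells, 228 and 220 at 5 hours, 663 and 764 at 1 day, 836 and 968 at 2 days, and 1481 and 1438 at 4 days. In EV cells VEGFA had 92.6 and 92.8 CPM attached, 158 and 163 at 5 hours, 610 and 601 at 1 day, 502 and 512 at 2 days and 653 and 665 at 4 days. Every suspended library was above the attached ones, with mean log2 fold changes of 2.05 ± 0.06 in Tpm2.1 and 2.19 ± 0.06 in EV cells, and in EV cells most of the rise was present by 1 day. NDRG1, a stress-response gene induced by hypoxia in many lines, had 173 CPM in both attached Tpm2.1 libraries, then 288 and 311, 469 and 514, 782 and 740, and 788 and 753. In EV cells NDRG1 had 91.5 and 93.7 CPM attached, then 179 and 190, 376 and 373, 491 and 520, and 1346 and 1464. EV cells at 4 days were above all other groups, 3.92 ± 0.07 over attached EV cells, against 2.16 ± 0.06 for the non-apoptotic Tpm2.1 cells over attached Tpm2.1 cells. BNIP3, a receptor for the removal of mitochondria, had 203 CPM in both attached Tpm2.1 libraries, then 145 and 144, 199 and 232, 359 and 416, and 433 and 423. In EV cells BNIP3 had 170 and 172 CPM attached, then 78.3 and 81.0, 217 and 222, 231 and 241, and 468 and 507. It and its relative BNIP3L fell at 5 hours and rose past 2-fold by 4 days in both lines. ANKRD37, an ankyrin repeat gene known as a HIF target, rose by 0.51 ± 0.15 in Tpm2.1 and 0.41 ± 0.15 in EV cells, and CA12, a membrane carbonic anhydrase, by 0.96 ± 0.11 in Tpm2.1 and 0.69 ± 0.10 in EV cells.

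ADM, the vasodilator peptide adrenomedullin, was the target that fell. It had 104 and 102 CPM in attached Tpm2.1 cells, then 38.3 and 42.0, 51.1 and 48.4, 64.6 and 67.2, and 60.3 and 66.8. In EV cells ADM had 66.7 and 68.8 CPM attached, then 43.5 and 41.7, 52.9 and 55.7, 59.8 and 72.3, and 81.2 and 74.4. At 4 days it was below attached Tpm2.1 cells (-0.70 ± 0.08) and above attached EV cells (0.20 ± 0.08). CA9, the carbonic anhydrase often used as a hypoxia marker, was close to absent in most libraries. It had 13 and 6 counts in attached EV cells, 2 and 1 at 5 hours and 84 and 83 at 4 days. The ratio of 4 days to 5 hours was 58.5, with a 95% interval of 19.7 to 286 that covers counting error only, and the ratio to attached EV cells was 13.2 (8.21 to 22.5). In non-apoptotic Tpm2.1 cells CA9 had 21 and 28 counts at 2 days and 8 and 4 at 4 days, so its high point was earlier there.

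**Figure D4:**
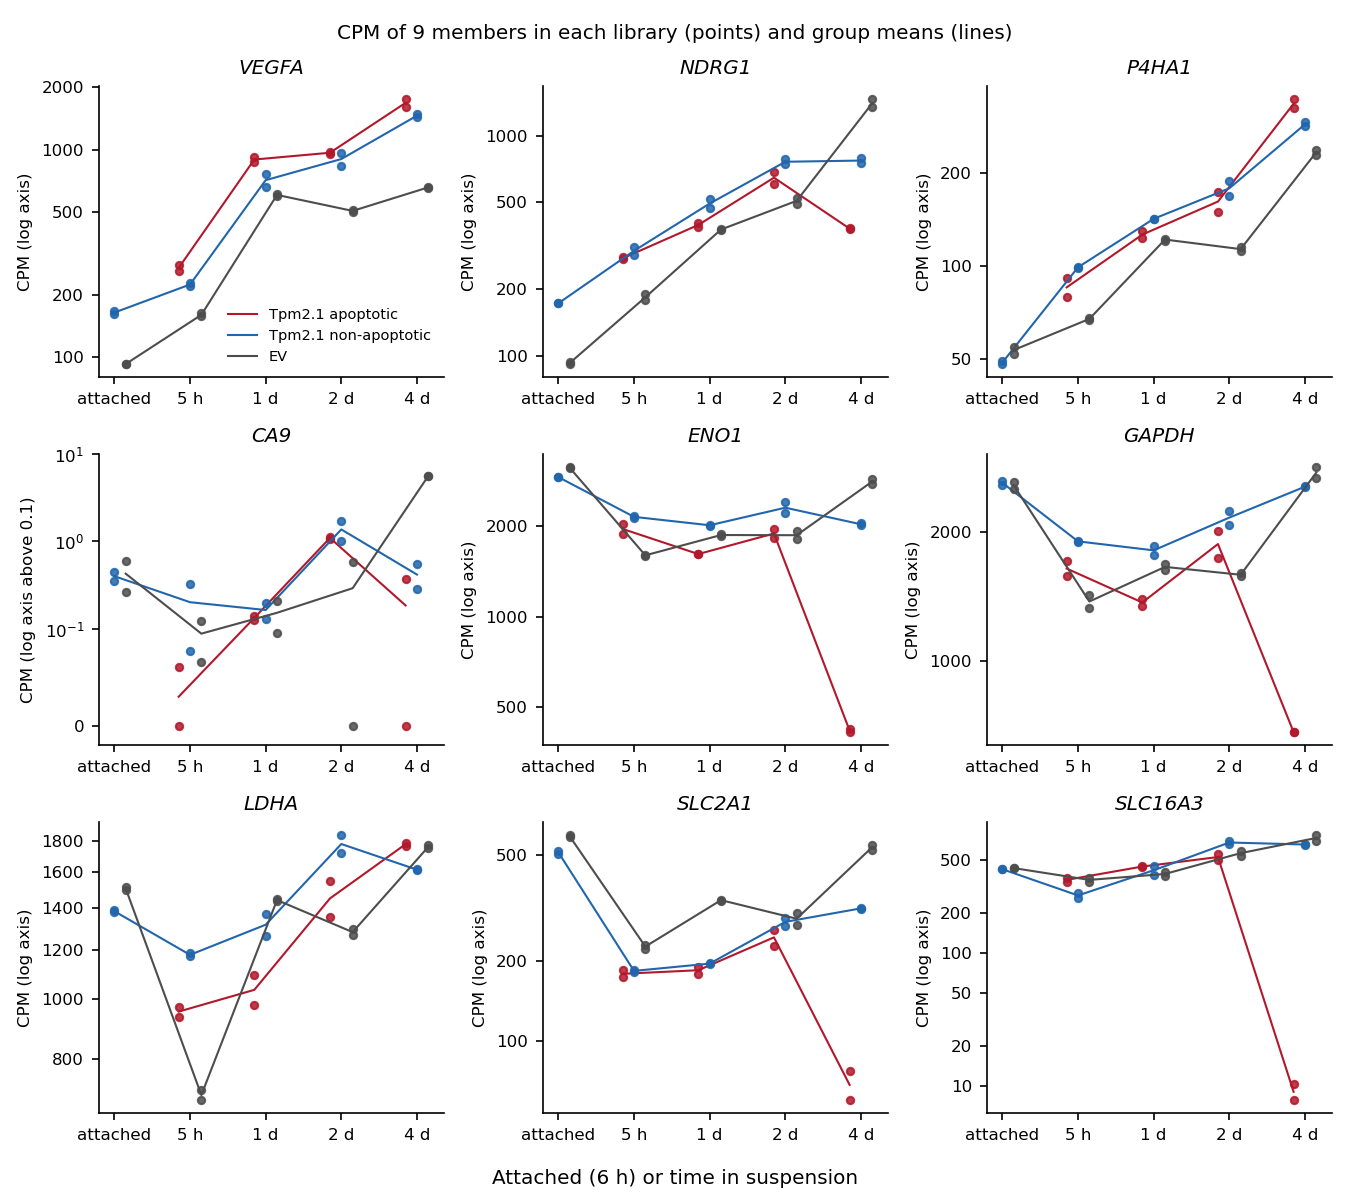
CPM of 9 members in each library (points) with group means (lines) for attached cells and each time in suspension; the vertical axes are logarithmic, that of CA9 above 0.1 only. VEGFA, NDRG1 and P4HA1 climb, ENO1, GAPDH and SLC16A3 fall away in the apoptotic fraction at 4 days, and CA9 is high only in EV cells at 4 days (5.67 and 5.56 CPM).

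Start-site windows from RefSeq (GRCh38.p14, 250 bases before to 50 after the start) were matched for 33 of the 37 genes. ACGTG, read on both strands, was in 13 of the 33 (39.4%), against 21.6% of 27305 windows of the same length. GCGTG was in 16 (48.5% against 36.3%), and the median GC content was 69.7% in the members' windows and 58.3% in all. The 5 windows below belong to the member with the highest fold over time (CA9), to P4HA1, LDHA and ALDOC, which rose from 5 hours to 4 days in all 3 series (ALDOC in the apoptotic fraction by 0.27, but -0.04 with count totals), and to PGK1, which moved apart between the lines. All 5 hold ACGTG, while PDK1, HK1, KDM3A and PKM also rose in all 3 series and have none in their windows. HK2, BNIP3 and EGLN1 rose in all 3 series too and hold ACGTG in windows not printed here. GAPDH, GPI, ALDOA and ANKRD37 hold it as well but fell from 5 hours to 4 days in the apoptotic fraction. KDM3A and PKM hold GCGTG, and PDK1 and HK1 hold neither, in windows of 36.3% and 46.7% GC. Capitals mark ACGTG or its reverse complement, and CACGTG where both overlap. They are at chr9:35673678-35673977 (+) for CA9, chr10:73096817-73097116 (-) for P4HA1, chr11:18394313-18394612 (+) for LDHA, chr17:28576846-28577145 (-) for ALDOC and chrX:78103998-78104297 (+) for PGK1, each written 5′ to 3′ along the gene.
CA9: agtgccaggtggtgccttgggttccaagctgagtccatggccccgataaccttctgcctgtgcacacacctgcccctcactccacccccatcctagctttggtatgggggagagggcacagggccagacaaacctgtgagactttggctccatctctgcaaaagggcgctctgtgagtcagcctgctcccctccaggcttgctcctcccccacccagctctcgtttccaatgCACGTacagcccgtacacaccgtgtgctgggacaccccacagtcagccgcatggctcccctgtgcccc
P4HA1: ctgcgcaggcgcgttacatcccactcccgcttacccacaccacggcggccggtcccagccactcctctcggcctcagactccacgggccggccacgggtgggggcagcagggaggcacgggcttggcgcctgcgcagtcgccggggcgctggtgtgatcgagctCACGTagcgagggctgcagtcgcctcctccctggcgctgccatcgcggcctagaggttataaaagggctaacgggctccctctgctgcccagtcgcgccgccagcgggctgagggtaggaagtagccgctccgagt
LDHA: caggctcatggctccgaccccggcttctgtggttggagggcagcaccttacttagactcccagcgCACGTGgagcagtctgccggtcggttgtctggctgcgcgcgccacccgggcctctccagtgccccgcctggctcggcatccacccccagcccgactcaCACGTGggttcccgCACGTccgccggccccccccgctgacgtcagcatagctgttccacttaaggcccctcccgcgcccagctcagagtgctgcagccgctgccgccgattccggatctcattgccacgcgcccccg
ALDOC: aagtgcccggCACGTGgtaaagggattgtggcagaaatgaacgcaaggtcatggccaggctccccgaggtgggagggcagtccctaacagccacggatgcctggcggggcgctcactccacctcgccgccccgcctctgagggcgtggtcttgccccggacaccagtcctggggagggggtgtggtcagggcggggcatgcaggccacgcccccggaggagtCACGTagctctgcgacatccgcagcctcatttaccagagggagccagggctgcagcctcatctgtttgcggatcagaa
PGK1: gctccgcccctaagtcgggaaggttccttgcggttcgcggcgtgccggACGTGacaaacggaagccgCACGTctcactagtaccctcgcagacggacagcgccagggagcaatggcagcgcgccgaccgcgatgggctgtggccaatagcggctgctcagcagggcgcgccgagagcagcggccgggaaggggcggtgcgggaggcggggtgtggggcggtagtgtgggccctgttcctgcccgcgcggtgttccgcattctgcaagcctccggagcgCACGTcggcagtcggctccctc
Counted from the start, the capitals begin at -18 in CA9, -86 in P4HA1, -185, -87 and -73 in LDHA, -240 and -28 in ALDOC, and -202, -183 and 29 in PGK1. Such a match describes letters and no binding was measured.

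In attached cells 15 of the 37 members (40.5%) differed between the lines, where 20.5% of all genes passed. Of these 9 were higher and 6 lower in Tpm2.1 than in EV cells, and none was past 2-fold (2.7% of all genes). The median log2 fold change was -0.07, against -0.00 over all genes. NDRG1 (0.90 ± 0.06), VEGFA (0.82 ± 0.07), KDM3A (0.65 ± 0.08) and ADM (0.60 ± 0.07) were higher, from the levels given above. ALDOC, with 30.2 and 31.9 CPM in Tpm2.1 against 54.6 and 53.7 CPM in EV cells (-0.80 ± 0.08), and CA12, with 11.1 and 10.8 CPM in Tpm2.1 against 14.2 and 15.8 CPM in EV cells (-0.46 ± 0.13), were lower. No glycolytic enzyme was higher and 3 of 15 were lower (ALDOC, PFKM and TPI1). The split was 8 higher and 12 lower after a GC correction, 9 and 10 with DESeq2, 9 and 11 without the apoptotic 4-day libraries and 10 and 13 with the 4 attached libraries alone. Without Tpm2.1 replicate 1 it was 7 and 2, without Tpm2.1 replicate 2 it was 7 and 1 and without EV replicate 2 it was 6 and 2.

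In suspension, where line and separation cannot be told apart, the order of the lines changed with time. Non-apoptotic Tpm2.1 cells against EV cells had 15 members higher and 7 lower at 5 hours (40.9% of all genes passed), or 15 and 12 with count totals in place of TMM scaling. The counts were 7 and 10 at 1 day (40.0%), 23 and 0 at 2 days (44.4%, with 23.3% higher) and 5 and 20 at 4 days (43.9%, with 23.8% lower). On the mean of the times 18 were higher and 10 lower (60.5%; 15 and 14 with count totals), with a median of 0.07 against -0.03 over all genes. VEGFA was higher at every time, by 0.49 ± 0.06, 0.24 ± 0.06, 0.83 ± 0.06 and 1.15 ± 0.06 from 5 hours to 4 days. P4HA1 was also higher at each time (0.22 to 0.65). NDRG1 was higher at 5 hours, 1 day and 2 days (0.70, 0.39 and 0.59) and lower at 4 days (-0.87 ± 0.06), and SLC2A1 was lower at 4 days (-0.77 ± 0.07). At 2 days HK2 (0.86 ± 0.08), P4HA2 (0.84 ± 0.09), PGK1 (0.76 ± 0.06) and BNIP3 (0.71 ± 0.07) were among the 23 that were higher. CA9 had 21 and 28 counts in Tpm2.1 cells at 2 days, against 9 and 0 in EV cells, a ratio of 4.64 (2.25 to 10.7, counting error only), and the call was lost without EV replicate 2 or Tpm2.1 replicate 2. At 4 days CA9 had 8 and 4 counts in Tpm2.1 cells, against 84 and 83 in EV cells, and the EV level was 13.3 times that of Tpm2.1 cells (7.43 to 26.3). Mitochondrial mRNAs took 1.22% to 1.62% of counts in the non-apoptotic libraries, against 3.10% to 4.36% in EV libraries of 5 hours to 2 days and 1.12% to 1.28% at 4 days. Their part in these differences was not tested.

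The change on suspension in Tpm2.1 cells minus that in EV cells was tested on the mean of the times. The bead step is stated only for the suspended Tpm2.1 cells, so line and separation cannot be told apart here either. Of the 37 members 14 had a higher and 7 a lower change in Tpm2.1 cells (33.5% of all genes passed), or 12 and 10 with count totals in place of TMM scaling. None was past 2-fold (5.92% of all genes). Among the 15 glycolytic enzymes 9 were higher and 1 lower, and both lactate dehydrogenases were higher (LDHA 0.36 ± 0.06 and LDHB 0.34 ± 0.09). The largest were P4HA2 (0.77 ± 0.10), P4HA1 (0.57 ± 0.08), ALDOC (0.54 ± 0.09) and PGK1 (0.53 ± 0.07) on the higher side. On the lower side stood ADM (-0.73 ± 0.08), NDRG1 (-0.70 ± 0.07) and PFKFB4 (-0.68 ± 0.09).

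Between the apoptotic and non-apoptotic fractions of Tpm2.1 cells no member differed past 2-fold at 5 hours, 1 day or 2 days (1.62%, 2.23% and 1.29% of all genes). At 5 hours 3 members were higher and 9 lower in the apoptotic fraction (32.4% of members and 21.4% of all genes passed). At 1 day 2 were higher and 14 lower (43.2% and 19.3%), and at 2 days none was higher and 14 lower (37.8% and 16.6%). Of all genes 11.8%, 11.3% and 9.71% were lower at these times. The 5-hour split was 5 and 7 with count totals and 0 and 12 after a GC correction, and the 2-day split was 3 and 11 with count totals. At 5 hours 6 members passed without apoptotic replicate 2, and 6 without non-apoptotic replicate 1. At 2 days 5 passed without apoptotic replicate 1, 9 without non-apoptotic replicate 2 and 1 when only the libraries of that comparison were fitted. TPI1 was lower at each of these times (-0.23 ± 0.06, -0.43 ± 0.06 and -0.33 ± 0.06), as were GAPDH (-0.21, -0.40 and -0.21), PGK1 (-0.18, -0.39 and -0.30) and LDHA (-0.30, -0.35 and -0.29). VEGFA was higher at 5 hours and 1 day (0.27 ± 0.06 and 0.33 ± 0.06) and did not pass at 2 days (0.10 ± 0.06). On the mean of the times 4 members were higher and 29 lower (58.0% of all genes), and 3 and 19 without the 4-day libraries (38.5%).

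At 4 days the fractions parted. In the apoptotic fraction 7 members were higher and 23 lower than in the non-apoptotic one, where 72.1% of all genes passed (35.3% higher and 36.8% lower), or 3 and 26 with count totals in place of TMM scaling. Past 2-fold 2 were higher and 18 lower, where 14.9% and 26.7% of all genes were, and the median over the members was -1.03, against 0 over all genes. SLC16A3 had 10.3 and 7.87 CPM in the apoptotic fraction, against 665 and 644 CPM in the non-apoptotic one (-6.17 ± 0.10). It had 345 and 365 CPM in the apoptotic fraction at 5 hours, 450 and 444 at 1 day and 558 and 497 at 2 days, so the low level was seen at 4 days alone. ENO1 had 413 and 423 CPM in the apoptotic fraction, against 2045 and 2009 CPM in the non-apoptotic one (-2.28 ± 0.06). Of the others, given as apoptotic against non-apoptotic libraries, GAPDH had 683 and 682 against 2563 and 2543 CPM (-1.90 ± 0.06), TPI1 228 and 201 against 881 and 894 CPM (-2.05 ± 0.07), and SLC2A1 76.9 and 59.9 against 317 and 314 CPM (-2.21 ± 0.08). In each of these genes both apoptotic libraries were below both non-apoptotic ones by a wide margin. ALDOC (-2.21 ± 0.08), ALDOA (-2.07 ± 0.24), ANKRD37 (-1.97 ± 0.26) and GPI (-1.68 ± 0.06) were also lower, and so was PFKL (-2.34 ± 0.08), whose difference was 0.07 after the GC correction. Of the 15 glycolytic enzymes 13 were lower, HK1 and PKM being those that did not pass (0.02 ± 0.06 and 0.05 ± 0.05). After the GC correction HK1 (0.69) and PKM (0.77) passed as higher. The 15 enzymes summed to 1102 and 1081 FPKM in the apoptotic fraction, against 2633 and 2587 FPKM in the non-apoptotic one. These sums have no GC correction, after which GAPDH was at -0.32, TPI1 at -0.71 and ENO1 at -1.64.

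A smaller set held or gained in the apoptotic fraction at 4 days. HIF1A had 1381 and 1465 CPM there, against 449 and 447 CPM in the non-apoptotic fraction (1.67 ± 0.06), its highest level in any group. PDK1 had 57.1 and 68.3 CPM in the apoptotic fraction, against 29.9 and 25.1 CPM in the non-apoptotic one (1.19 ± 0.11). BNIP3L had 615 and 651 CPM in the apoptotic fraction, against 350 in both non-apoptotic libraries (0.86 ± 0.07), a call that was lost after the GC correction (0.020). In the same order of fractions LDHA had 1765 and 1786 against 1611 and 1619 CPM (0.14 ± 0.06), VEGFA 1752 and 1616 against 1481 and 1438 (0.21 ± 0.06), and P4HA1 323 and 346 against 283 and 291 (0.22 ± 0.06). The apoptotic libraries were above the non-apoptotic ones in each, but LDHA and P4HA1 were lower after the GC correction (-0.32 and -0.50), and LDHA was at -0.02 with count totals in place of TMM scaling. LDHB also passed (0.20 ± 0.09, lost after the GC correction), while BNIP3, KDM3A, EGLN1, CA9 and CA12 did not. Within the apoptotic fraction BNIP3L rose by 2.76 ± 0.07, VEGFA by 2.64 ± 0.06 and PDK1 by 2.34 ± 0.12 from 5 hours to 4 days, while ENO1 fell by 2.23 ± 0.06 and GPI by 1.48 ± 0.06.

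The fraction difference at 4 days moved with base composition. Across all genes with a GC value the log2 fold change had Pearson's r of -0.68 and Spearman's rho of -0.73 with transcript GC content, and across the 37 members -0.70 and -0.69 (genes are not replicates, and they share the same 4 libraries). HIF1A, PDK1 and BNIP3L are among the least GC-rich members, and SLC16A3 and PFKL the most. In the comparisons within EV cells r over all genes was near 0 (0.00014 for suspension, 0.019 for 4 days against 5 hours). At 5 hours r was 0.26 between the fractions, of opposite sign to that at 4 days. Also at 5 hours it was -0.24 for non-apoptotic against attached Tpm2.1 cells and -0.23 between the suspended lines. For the fraction difference at 4 days minus that at 5 hours it was -0.69. With a GC trend removed from each library 9 members were higher and 22 lower at 4 days (56.3% of all genes passed), 1 and 6 of them past 2-fold, and the median was -0.44. SLC16A3 (-3.97), ANKRD37 (-2.58), ENO1 (-1.64), SLC2A1 (-1.27) and ALDOA (-1.21) stayed past 2-fold lower, and PGK1 (-0.67 before) came to -1.18. HIF1A was then 0.70 and PDK1 0.40 higher, and VEGFA was 1.12 higher. GAPDH came to -0.32 and TPI1 to -0.71. ADM (0.40), PFKP (0.21), PFKFB3 (0.16), HK2 (0.10) and PFKL turned to the higher side, and LDHA (-0.32) and P4HA1 (-0.50) to the lower side. HK2 and PFKL no longer passed, nor did BNIP3L (0.020) and LDHB (0.00019). HK1 (0.69), PKM (0.77) and BNIP3 (0.57), which had not passed, were then higher, and EGLN1 and KDM3A (both -0.44) lower. The part of library composition in these differences was not tested beyond this correction.

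**Figure D5:**
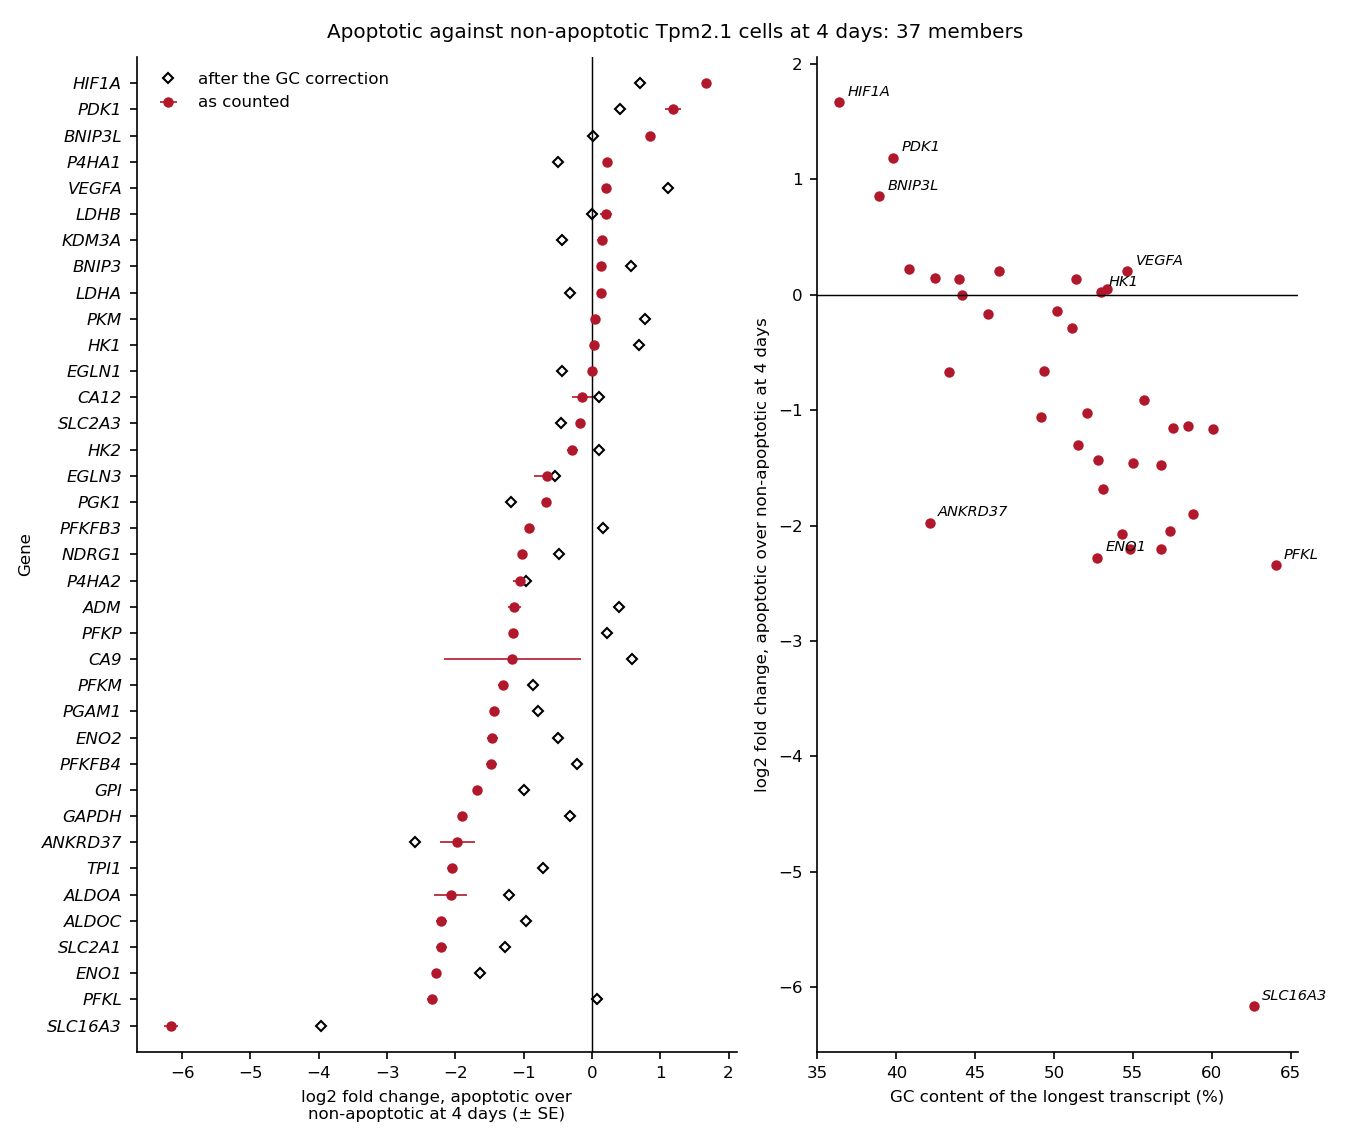
Left, log2 fold change of each member in the apoptotic over the non-apoptotic fraction at 4 days (filled points, SE as bars) and after the GC correction (open diamonds); right, the uncorrected value against the GC content (%) of the longest transcript. SLC16A3 is lowest in both forms (-6.17 and -3.97), and most open diamonds of the lower group lie nearer to 0 than the filled points.

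The time course of the fraction difference was tested as the difference at 4 days minus that at 5 hours. Of the 37 members 7 were higher and 21 lower (66.9% of all genes passed), with SLC16A3 at -6.55 ± 0.13 and HIF1A at 1.98 ± 0.08 at the ends. The GC correction brought HIF1A to 0.95.

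Other genes of the same pathways, from lists chosen with earlier results known, gave this background. Beside them, of all genes tested 30.8% rose and 30.6% fell on suspension in Tpm2.1 cells, and 34.2% and 32.2% in EV cells. From 5 hours to 4 days 29.9% of all genes rose and 25% fell in Tpm2.1 cells, and 28.3% and 24.5% in EV cells. Of 40 other hypoxia targets 29 rose and 5 fell in non-apoptotic Tpm2.1 cells on suspension, and 27 rose and 6 fell in EV cells. From 5 hours to 4 days 26 of the 40 rose and 7 fell in Tpm2.1 cells, and 33 rose and 4 fell in EV cells. MIR210HG, the host transcript of a hypoxia-induced miRNA, rose by 3.64 ± 0.26 in Tpm2.1 and 2.83 ± 0.24 in EV cells over that time, and HMOX1, heme oxygenase, was lower in both (-3.11 ± 0.19 in Tpm2.1 and -5.40 ± 0.18 in EV cells). Of 28 genes of pyruvate entry and the TCA cycle 8 rose and 13 fell on suspension in Tpm2.1 cells, and 6 rose and 16 fell in EV cells. There PDK4, a relative of PDK1, rose by 1.98 ± 0.17 in Tpm2.1 and 3.39 ± 0.17 in EV cells, and FH, fumarase, was lower (-0.90 ± 0.05 in Tpm2.1 and -1.10 ± 0.05 in EV cells). Of 14 tested regulators of the HIF pathway 5 rose and 3 fell in Tpm2.1 cells and 8 rose and 5 fell in EV cells, with EPAS1, which codes for HIF-2 alpha, higher by 0.70 ± 0.05 in Tpm2.1 and 0.87 ± 0.05 in EV cells. MYC, a driver of glycolytic gene expression, was lower (-0.87 ± 0.04 in Tpm2.1 and -1.19 ± 0.04 in EV cells). In the apoptotic fraction at 4 days 16 of the 40 hypoxia targets were higher and 18 lower than in the non-apoptotic one. Of the 28 TCA genes 17 were higher and 8 lower, where 35.3% of all genes were higher and 36.8% lower.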

How the data were processed

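RNA of 28 MDA-MB-231 libraries was sequenced after poly-A selection and random hexamer priming, per the labels' protocols. The authors deposited gene counts, as whole numbers, with an FPKM table beside them. The submitters' processing notes name hg38 and DESeq2 without saying what each was used for. No aligner, counter or strand setting is given in the sources used here. FPKM as deposited equalled count per length per scaled total (relative deviation at most 5.2e-15), and gene identifiers and positions matched GENCODE release 29. Members and context lists were chosen with earlier results of these data known.

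The deposited counts entered a single edgeR fit (4.0.16; limma 3.58.1; R 4.3.3) of all 28 libraries, with TMM, filterByExpr, a mean per group and quasi-likelihood F tests, with 14 residual degrees of freedom, in 26 contrasts. A gene passed at a Benjamini-Hochberg adjusted p of 0.05 over the 17191 genes tested in a contrast. The SE is the log2 fold change over the square root of F. Means over times weight the times equally. No list was tested as a set. CPM was scaled by TMM, and totals of 13043529 to 27416335 counts limit CA9 most; its ratios have exact 95% intervals. Same-numbered libraries did not deviate together (correlations of -0.0751 to 0.0541 over 91 pairs of groups), so the replicate number was not a block. Values were printed for members past 2-fold in a contrast (or the 4 with the smallest p), for those with opposite signs in compared contrasts, and as levels for a set list.

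Alternatives tried were count totals without TMM, DESeq2 (1.42.0), edgeR with DESeq2's size factors, all genes without a count filter, only protein-coding genes, only the libraries a comparison names, the replicate block, a GC correction (lowess, span 0.2), means without 4 days, each library left out, and, added after seeing the data, a fit without the apoptotic 4-day libraries. Where 1 library was left in a group it was assumed to vary like the others. The fits were tested on simulated data.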

Additional observations from a re-analysis of the deposited data

Results flagged for a closer look

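The change on suspension, on the mean of the times, differed between Tpm2.1 and EV cells by an interaction test for 21 members, where 33.5% of all genes passed (the members split into 14 higher and 7 lower, or 12 and 10 with count totals in place of TMM scaling). For the 4 with the smallest p, the change in Tpm2.1 cells minus that in EV cells was -0.73 for ADM, -0.70 for NDRG1, -0.68 for PFKFB4 and 0.53 for PGK1 on the log2 scale. ADM fell more in Tpm2.1 than in EV cells, and NDRG1 and PFKFB4 rose less. These genes were already higher in attached Tpm2.1 than in attached EV cells (NDRG1 0.90, ADM 0.60 and PFKFB4 0.35), so their changes start from unlike levels. Line and bead separation cannot be told apart in this test.

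The difference between the apoptotic and non-apoptotic fractions changed between 5 hours and 4 days, by an interaction test, for 28 members, or 75.7% of them, where 66.9% of all genes passed. For the carriers the change was -6.55 for SLC16A3 and -2.17 for SLC2A1. For the glycolytic enzymes it was -2.50 for PFKL, -2.14 for ENO1, -2.06 for ALDOA, -1.98 for ALDOC, -1.82 for TPI1, -1.75 for ENO2, -1.69 for GAPDH, -1.55 for GPI, -1.36 for PGAM1, -1.26 for PFKP and -1.25 for PFKM. It was -2.44 for ANKRD37, -1.65 for PFKFB4 and -1.34 for ADM. On the other side stood HIF1A (1.98), PDK1 (1.20) and BNIP3L (1.07). After the GC correction PDK1 (0.34) and BNIP3L (0.15) no longer passed, and PFKL (0.24), GAPDH (0.095), PFKP (0.29) and ADM (0.39) had values above 0. These differences rest on both apoptotic 4-day libraries, which held fewer detected genes than all others, and their part in the result was not tested.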

How the results depend on the processing

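Every member change that passed (697 in all comparisons) was recomputed under each alternative. Of 10654 values, 10092 kept direction and side of the threshold, 516 lost the threshold (292 of them with 1 library left out, which turned no sign) and 46 changed sign. For the fractions at 4 days the GC correction turned ADM (0.40), HK2 (0.10), LDHA (-0.32), P4HA1 (-0.50), PFKFB3 (0.16), PFKL (0.071) and PFKP (0.21). For 4 days against 5 hours in the apoptotic fraction it turned ADM (0.90), GAPDH (0.36), PFKFB3 (0.75), PFKFB4 (0.69), PFKL (1.30), PFKP (0.21) and TPI1 (0.13). In the change of the fraction difference it turned ADM (0.39), GAPDH (0.095), HK2 (0.20), LDHA (-0.055), P4HA1 (-0.36), PFKFB3 (0.38), PFKL (0.24) and PFKP (0.29). On the mean over times it turned ADM (0.089), BNIP3L (-0.11), ENO2 (0.035), PFKFB4 (0.0018) and PKM (0.021) between the fractions, and ADM (0.0018) and PFKL (0.11) between the lines, and at 4 days SLC16A3 (0.0051) between the lines. Without 4 days the mean turned between the fractions for ADM (0.070), BNIP3L (-0.17), ENO2 (0.26), HIF1A (-0.16), PFKFB4 (0.14), PFKL (0.0023) and SLC16A3 (0.039), in suspended EV cells for BNIP3 (-0.096), BNIP3L (-0.18) and SLC16A3 (-0.023), and in suspended Tpm2.1 cells for EGLN1 (-0.036) and SLC16A3 (-0.0041). Count totals turned SLC16A3 at 1 day (0.0096) and PFKM on the mean (0.0044) in EV cells, LDHA between the fractions at 4 days (-0.024) and ALDOC over time in the apoptotic fraction (-0.038). The cause was not tested.

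Counts of passing members moved past 1.5 times in attached cells (15; 23 with those libraries alone, 8 to 11 with 1 library left out), for the fractions at 5 hours (12; 6 to 15 left out) and at 2 days (14; 1 with those libraries alone, 5 to 19 left out). All other counts stayed within 1.5 times under every alternative. Count totals in place of TMM moved the median of all genes by 0.196 for EV cells at 5 hours and by -0.31 for 4 days against 5 hours in the apoptotic fraction. The replicate numbers did not pair the libraries; with the replicate block 15 members passed in attached cells, 33 in suspended EV and 32 in suspended Tpm2.1 cells, and 31 between the fractions at 4 days (30 without it).

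With 2 libraries a group, small changes and genes of few counts (CA9, EGLN3, ANKRD37, ALDOA) are the least certain. The calls of CA9 at 2 days were lost when single libraries were left out.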
